A study of Mus musculus with 4 samples.

Results

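The 10 genes described here encode the enzymes and transporters that make, load, recapture and break down noradrenaline and serotonin. They were chosen by symbol, were all listed in the deposited tables, and stand among 31735 gene rows shared by the 4 libraries. The libraries hold ribosome-bound RNA from the rostral pons of adult, untreated mice of the Cbln2-TRAP line NIDA172, in which a fusion of EGFP and ribosomal protein L10a tags ribosomes. In translating ribosome affinity purification (TRAP), antibodies to EGFP pull down the tagged ribosomes with their RNA, so the RNA of cells that use the Cbln2 transgene is favoured. All 4 libraries, called replicates 1 to 4, are immunopurified RNA of 1 group. Levels, gene-to-gene ratios and differences among replicates can thus be read, while enrichment over the whole tissue was not measured.

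Noradrenaline and serotonin are made in parallel. In each case a hydroxylase that needs the cofactor tetrahydrobiopterin acts first, on tyrosine for noradrenaline and on tryptophan for serotonin, and a shared decarboxylase acts next. The vesicular monoamine transporter loads the amine, a transporter specific to each amine takes it back up after release, and the monoamine oxidases break it down. In the brain the largest group of noradrenaline neurons lies in the locus coeruleus of the pons, and serotonin neurons lie in the raphe nuclei of the brainstem. In bulk RNA of this kind, fewer cells of a type and less RNA per cell cannot be told apart.

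The libraries held 12731825 to 21140265 gene counts, and levels are given in CPM, that is, a gene's counts per 1000000 of all gene counts. Rn45s, the row of precursor ribosomal RNA, took 24.2% and 9.29% of the counts of replicates 3 and 4, against 1.68% and 1.61% in replicates 1 and 2. All 10 genes of a general neuronal list reached 1 CPM in every library. En1, a transcription factor gene of the midbrain and rostral hindbrain, was at 50.8, 31.7, 23.2 and 29.5 CPM in replicates 1 to 4. The labels do not say whether replicates came from separate animals, so p-values here speak only to how much these libraries vary, and that variation may be technical.

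Promoter sequences are shown for the 4 members that mark the steps on which the results turn. These are Th and Tph2 (the hydroxylases), Dbh (the noradrenaline enzyme) and Slc18a2 (the vesicular transporter). RefSeq start sites on GRCm38.p6 gave a window for 8 of the 10 genes, with 250 bases before the start and 50 after it. Slc6a2 and Maob had no entry. Each window is 300 bases long, written 5′ to 3′ along the gene. Capitals mark TGACGTCA (the cyclic AMP response element), TATAAA (the TATA box) and ATTA (a core letter group of homeodomain sites), each searched on both strands.
Th, chr7:142899946-142900245, minus strand: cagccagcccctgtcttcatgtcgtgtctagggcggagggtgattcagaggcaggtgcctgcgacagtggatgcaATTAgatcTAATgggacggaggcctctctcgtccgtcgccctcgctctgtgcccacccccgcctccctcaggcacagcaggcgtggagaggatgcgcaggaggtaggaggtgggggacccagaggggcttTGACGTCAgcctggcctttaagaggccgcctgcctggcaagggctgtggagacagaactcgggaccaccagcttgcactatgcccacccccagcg
Dbh, chr2:27165257-27165556, plus strand: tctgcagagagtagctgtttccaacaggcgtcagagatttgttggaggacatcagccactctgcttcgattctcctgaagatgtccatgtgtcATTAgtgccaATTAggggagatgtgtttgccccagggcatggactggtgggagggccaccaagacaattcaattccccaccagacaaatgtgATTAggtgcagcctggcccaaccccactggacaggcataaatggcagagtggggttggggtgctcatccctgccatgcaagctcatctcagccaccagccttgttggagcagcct
Slc18a2, chr19:59260628-59260927, plus strand: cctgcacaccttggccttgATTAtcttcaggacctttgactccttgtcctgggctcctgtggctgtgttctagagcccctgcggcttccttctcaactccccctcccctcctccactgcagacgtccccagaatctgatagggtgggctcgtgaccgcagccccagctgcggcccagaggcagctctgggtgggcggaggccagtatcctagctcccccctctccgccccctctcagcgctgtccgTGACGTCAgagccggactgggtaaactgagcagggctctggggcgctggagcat
Tph2, chr10:115184973-115185272, minus strand: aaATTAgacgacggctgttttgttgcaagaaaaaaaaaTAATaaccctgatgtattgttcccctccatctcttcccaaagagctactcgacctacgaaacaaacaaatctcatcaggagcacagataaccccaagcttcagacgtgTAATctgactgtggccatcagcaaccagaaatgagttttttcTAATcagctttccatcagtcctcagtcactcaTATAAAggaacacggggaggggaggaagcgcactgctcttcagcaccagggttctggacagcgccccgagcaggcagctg

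TGACGTCA was found in 2 of the 8 genes, in Th at bases 206 to 213 of the window and in Slc18a2 at bases 247 to 254. It occurs in 1.79% of the 32851 promoter windows in the table. ATTA was found in 5 of the 8 genes, beside 58.0% of all windows, with 3 matches in Dbh and 4 in Tph2. TATAAA was found in Tph2 at bases 221 to 226, and also in Ddc and Gch1, beside 13.6% of all windows. The shorter form TGACG, which also lies inside TGACGTCA, was found in 6 of the 8 genes and in 20.8% of all windows. A match describes these letters only, and no factor was measured.

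The noradrenaline genes were uneven between libraries. Dbh and Slc6a2 were highest in replicate 4 and next highest in replicate 1, while Th was high in replicates 3 and 4. Th (ENSMUSG00000000214.11, chromosome 7, 142892752 to 142931128, minus strand, GRCm38) encodes tyrosine hydroxylase, the rate-limiting enzyme of catecholamine synthesis. It had 60, 10, 439 and 651 counts, which is 2.84, 0.643, 34.5 and 42.5 CPM in replicates 1 to 4. Replicates 3 and 4 were both high, and replicates 1 and 2 both low. Dbh (ENSMUSG00000000889.8, chromosome 2, 27165233 to 27183200, plus strand) encodes dopamine beta-hydroxylase, which turns dopamine into noradrenaline inside vesicles. It had 71, 16, 28 and 936 counts, or 3.36, 1.03, 2.20 and 61.1 CPM. Replicate 4 alone was high and held 90.3% of the CPM summed over libraries. Its 95% exact Poisson interval of 57.3 to 65.2 CPM lay far from the highest of the other replicates, 2.62 to 4.24 CPM in replicate 1, but such intervals cover counting error only. Replicate 3 was thus high for Th and low for Dbh.

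Slc6a2 (ENSMUSG00000055368.14, chromosome 8, 92960079 to 93001667, plus strand) encodes the noradrenaline transporter, which recaptures the amine. It varied least of these 3 genes on the log2 scale, at 56.6, 16.3, 23.6 and 137 CPM, with 254 counts or more in each library. Replicate 4 was again highest, and replicate 1 came second. In the ranking of all rows by CPM, Slc6a2 stood at 3614, 6964, 5823 and 1495 in replicates 1 to 4. Dbh stood at 10931, 12323, 11657 and 3430.

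**Figure D1:**
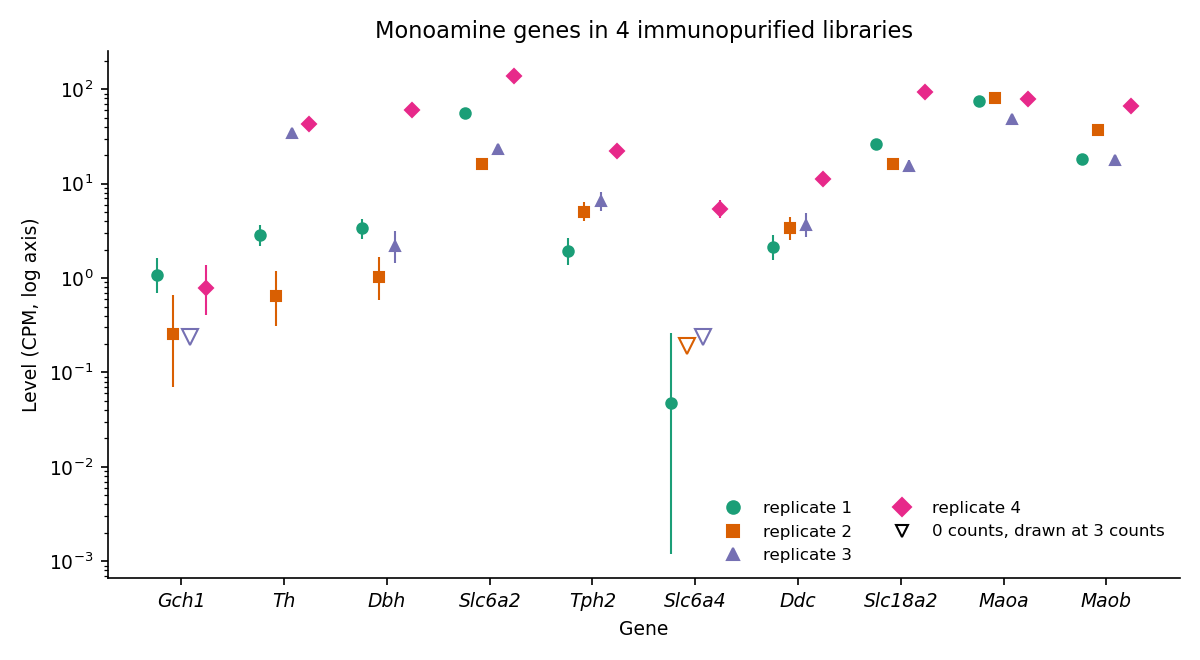
Level of each of the 10 genes in CPM (log axis) in replicates 1 to 4. Filled symbols are libraries with at least 1 count, with 95% exact Poisson intervals as bars, and open triangles are libraries with 0 counts, drawn at 3 counts. Replicate 4 is the highest symbol for 8 of the 10 genes, Th is high in replicates 3 and 4, and Maoa lies within 48.2 to 81.9 CPM.

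The 2 serotonin genes were both highest in replicate 4. Tph2 (ENSMUSG00000006764.8, chromosome 10, 115078641 to 115185022, minus strand) encodes tryptophan hydroxylase 2, the rate-limiting enzyme of serotonin synthesis in neurons. It had 41, 79, 83 and 343 counts, or 1.94, 5.08, 6.52 and 22.4 CPM. Slc6a4 (ENSMUSG00000020838.12, chromosome 11, 76998603 to 77032340, plus strand) encodes the serotonin transporter. It had 1, 0, 0 and 83 counts, so that replicate 4 was at 5.42 CPM (4.32 to 6.72) and replicate 1 at 0.0473 CPM. By the same exact Poisson interval, the counts of 0 in replicates 2 and 3 allow levels of up to 0.237 and 0.290 CPM. Tph2 RNA was therefore found in every library, while Slc6a4 RNA was detectable beyond 1 count in replicate 4 only.

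Of the genes both pathways share, Ddc and Slc18a2 were highest in replicate 4 and Gch1 was near the floor. Gch1 (ENSMUSG00000037580.10, chromosome 14, 47153895 to 47189413, minus strand) encodes GTP cyclohydrolase 1, which starts the synthesis of tetrahydrobiopterin. It had the fewest counts of the members, with 23, 4, 0 and 12 counts, and reached 1 CPM in replicate 1 only, at 1.09 CPM. Ddc (ENSMUSG00000020182.16, chromosome 11, 11814101 to 11898144, minus strand) encodes aromatic L-amino acid decarboxylase, which makes both dopamine and serotonin. It was at 2.13, 3.41, 3.69 and 11.1 CPM, highest in replicate 4 and under 4 CPM elsewhere. Slc18a2 (ENSMUSG00000025094.8, chromosome 19, 59260896 to 59296012, plus strand) encodes the vesicular monoamine transporter VMAT2. It was at 26.7, 16.3, 15.6 and 92.6 CPM. Of its exon bases 2.12% are shared with an antisense gene, Gm29261, and the other 9 members share none with another annotated gene.

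The oxidases had the highest mean levels per kilobase of exon, and Maoa varied least of all members. Maoa (ENSMUSG00000025037.6, chromosome X, 16619698 to 16687818, plus strand) encodes monoamine oxidase A, which prefers serotonin and noradrenaline. It was at 74.5, 81.9, 48.2 and 79.1 CPM, a mean of 70.9 ± 15.4 CPM (SD, n = 4). Replicate 3, with the largest Rn45s share, was lowest. With the row Rn45s left out of the totals, the mean of Maoa was 77.5 ± 10.3 CPM. The part of that share in the level of replicate 3 was not tested further. Maob (ENSMUSG00000040147.14, chromosome X, 16709282 to 16817366, minus strand) encodes monoamine oxidase B, known in astrocytes and serotonin neurons. It was at 18.5, 36.6, 17.8 and 66.1 CPM. A list of 10 astrocyte markers summed to 1009, 1223, 293 and 1699 CPM in the same libraries, with 9 of 10 at 1 CPM or more throughout. Both Maob and the astrocyte sum were lowest in replicate 3 and highest in replicate 4. Slc1a2, a glutamate transporter gene, made up most of the sum in replicate 4, and without it the list summed to 418, 568, 109 and 395 CPM, highest in replicate 2. The part of astrocyte RNA in the Maob level was not tested.

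To compare genes, levels were divided by the length of all annotated exons of a gene. The transcript forms present were not tested, so such comparisons are approximate. Per kilobase of exon, mean levels ran from Maoa at 17.0 ± 3.71 CPM per kb (SD, n = 4) and Maob at 12.5 ± 8.13 to Slc6a4 at 0.302 ± 0.596 and Gch1 at 0.0851 ± 0.0790. Between these, in falling order, stood Slc6a2 at 9.28 ± 8.78, Th at 8.51 ± 9.09, Slc18a2 at 7.23 ± 7.07, Dbh at 6.29 ± 10.9, Tph2 at 3.12 ± 3.18 and Ddc at 1.14 ± 0.912 CPM per kb. Without replicate 4, Dbh averaged 0.816, Tph2 1.57, Th 5.35, Slc6a2 5.11, Slc18a2 3.74 and Ddc 0.689 CPM per kb, so that Tph2 stood above Dbh and Th above Slc6a2. Slc6a4 then averaged 0.00348 CPM per kb, below Gch1 at 0.0717. Of the 9 steps between neighbours in this order, 1 went the same way in all 4 libraries with a mean over 2 SD, that of Ddc over Slc6a4 (log2 ratio 1.13 ± 0.29), where Slc6a4 was at or under 1 count in 3 libraries. The others did not differ beyond their spread. Of the 10 members 7 reached 1 CPM in all 4 libraries, beside 33.5% of all rows.

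Ratios between members were then taken within each library. Of 16 ratios between members, on log2 values per kb with a pseudocount of 0.5, 7 went one way in all 4 libraries, and 3 of these had a mean over 2 SD. Signs were flipped over libraries in an exact permutation test (two-sided), and those 7 had the smallest p that 4 libraries allow, 2 of 16 sign patterns, which is 0.286 when adjusted over the 16 ratios, so none can pass 0.05. The 2 reuptake transporters gave the largest mean of the 16. Slc6a2 exceeded Slc6a4 by a log2 ratio of 3.41 ± 0.70 (SD, n = 4, above 0 in 4 of 4 libraries). Slc6a4 was at or under 1 count in replicates 1 to 3, so this mean depends on the pseudocount and was 5.11 with 0.1 CPM per kb and 2.69 with 1. In replicate 4, where both transporters had more than 1 count, Slc6a2 was 18.2 times Slc6a4 per kb without a pseudocount. With Slc6a4 set to a floor of 3 counts, Slc6a2 was 287, 61.0 and 72.0 times Slc6a4 in replicates 1 to 3. These values are not lower limits. The floor stood at 0.142, 0.193 and 0.236 CPM. The exact Poisson intervals of Slc6a4 reached higher, to 0.264, 0.237 and 0.290 CPM.

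Slc6a4 lay below Tph2 in all 4 libraries (log2 ratio -2.03 ± 0.57), and in replicate 4 it stood at 0.154 of Tph2 per kb without a pseudocount. The mean again depends on the pseudocount and was -3.55 with 0.1 CPM per kb and -1.48 with 1. Ddc lay below Slc18a2 in all 4, by a log2 ratio of -2.01 ± 0.64, and also below Tph2, by -0.91 ± 0.50. The order of Ddc and Tph2 depends on the division by exon length. In CPM without it the mean was -0.53 ± 0.47, and in replicate 1 Ddc was above Tph2 (2.13 against 1.94 CPM). Without a pseudocount, Ddc RNA per kb stood at 0.0935, 0.244, 0.278 and 0.140 of Slc18a2 RNA in replicates 1 to 4. Slc18a2 exceeded Tph2 in all 4 libraries (1.10 ± 0.84). Gch1 lay below Th (-2.91 ± 2.32) and Tph2 (-2.26 ± 1.21) in all 4, each with a mean that depends on the pseudocount.

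The ratios among Th, Dbh and Tph2 did not hold a direction. Th over Tph2 was 0.54, -1.55, 2.45 and 1.16 in replicates 1 to 4 (mean log2 ratio 0.65 ± 1.67). Th over Dbh had log2 values of -0.04, -0.19, 3.52 and -0.33 in replicates 1 to 4. Without a pseudocount, Th stood at 0.962, 0.712 and 0.792 of Dbh per kb in replicates 1, 2 and 4, and in replicate 3 it was 17.9 times Dbh. The value of replicate 2 rests on 10 and 16 counts. Without replicate 3 the mean log2 ratio was -0.19, against 0.74 ± 1.86 with all 4. Slc6a2 over Dbh was 2.44, 1.81, 1.69 and -0.06, so per kb the transporter led the enzyme in replicates 1 to 3 and was level with it in replicate 4. In CPM without division by exon length the mean log2 ratio was 2.92 ± 1.21. Slc6a2 was then higher in replicate 4 too (137 against 61.1 CPM). Dbh over Tph2 was above 0 in replicates 1 and 4 and below 0 in replicates 2 and 3 (mean -0.09 ± 1.35). Maoa over Maob was above 0 in 3 of 4 libraries (0.61 ± 0.70).

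**Figure D2:**
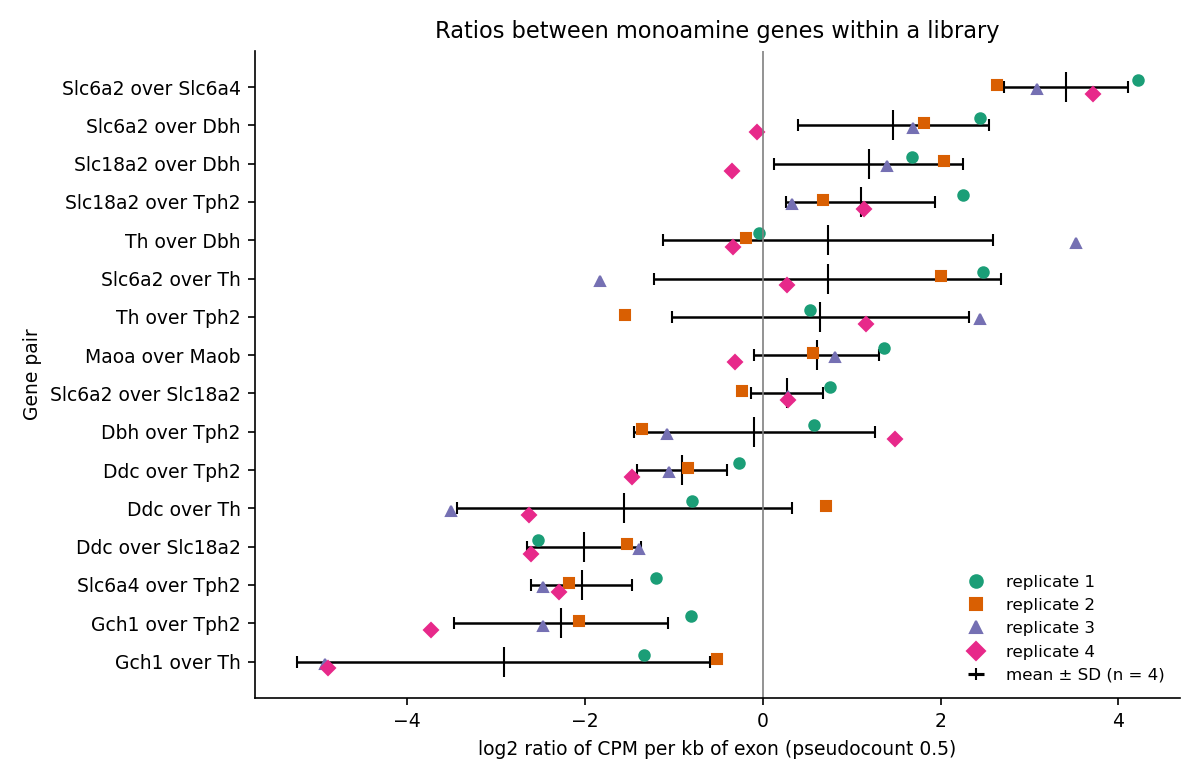
Log2 ratio of CPM per kb of exon (pseudocount 0.5) for 16 gene pairs, 1 symbol per library, with the mean and SD over 4 libraries in black. Th over Dbh has 3 libraries between -0.33 and -0.04 and replicate 3 at 3.52, while Slc6a2 over Slc6a4 lies above 0 and Ddc over Slc18a2 below 0 in every library.

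The spread between libraries, as the SD of log2(CPM + 0.5), had a median of 1.26 over the 10 members and 0.81 over the 13841 genes with a mean of 1 CPM or more. It was over 1 for 6 of the 10 members and for 38.0% of those genes. Th (SD 2.57) and Dbh (2.37) varied more than 99.4% and 98.9% of the genes, and Maoa (0.35) more than 11.7%. Replicate 4 held the highest CPM of 8 members, beside 30.4% of the genes. Maoa was highest in replicate 2 and Gch1 in replicate 1. Without replicate 4, 1 member had an SD over 1, beside 35.3% of genes, and the members' median fell to 0.62, beside 0.76 over all genes.

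The library numbers in the labels fall into 2 pairs of neighbours, 2469 and 2470 for replicates 3 and 4 (the second pair) and 1666 and 1667 for replicates 1 and 2 (the first pair). The labels give no batch and no treatment, and the comparison asks only how the replicates differ. Of the members Th alone passed the test, at 34.5 and 42.5 CPM in the second pair, against 2.84 and 0.643 CPM in the first, with no overlap. Its log2 change was 4.47 (SE 0.92, edgeR quasi-likelihood test, Benjamini-Hochberg adjusted p = 0.037). The adjusted p stayed under 0.05 in all 9 alternatives, at 3.55e-06 to 0.0403, with a log2 change of 3.80 without replicate 2 and 5.87 without replicate 1 as its extremes. Of the 9 members tested 1 was called, beside 1.27% of the 13905 genes tested, and of genes higher in the second pair 0.712%. The median log2 change was 1.27 over the 9 members and -0.03 over all genes. Without replicate 4 the members' median turned to -0.34, with 4 of 9 above 0, beside -0.16 over all genes.

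Dbh did not pass (log2 change 3.76, SE 1.29, edgeR adjusted p = 0.16), and its value rested on replicate 4. Without that library the log2 change was 0.14 (edgeR adjusted p = 0.997). It was called without replicate 1 (4.82, edgeR adjusted p = 0.00404), without replicate 3 (4.70, adjusted p = 0.00203 by edgeR) and by DESeq2 with all 4 (adjusted p = 0.014). Tph2 had a log2 change of 1.99 (SE 1.14), Ddc 1.38 (SE 1.34), Slc18a2 1.27 (SE 0.73), Slc6a2 1.09 (SE 0.73), Maob 0.55 (SE 0.68), Maoa -0.31 (SE 0.44) and Gch1 -0.83 (SE 2.37), with edgeR adjusted p of 0.418 to 0.916. Slc6a2, Slc18a2 and Maob turned negative without replicate 4, at -0.50, -0.34 and -0.52. Slc6a4 was removed by the filter on low counts here, and was not called in any of the 5 alternatives that kept it (adjusted p = 0.193 to 0.559, edgeR or DESeq2). It had 83 counts in the second pair, all in replicate 4, against 1 count in the first. That is a ratio of 109 with an exact 95% interval of 19.0 to 4340 for counting error only.

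**Figure D3:**
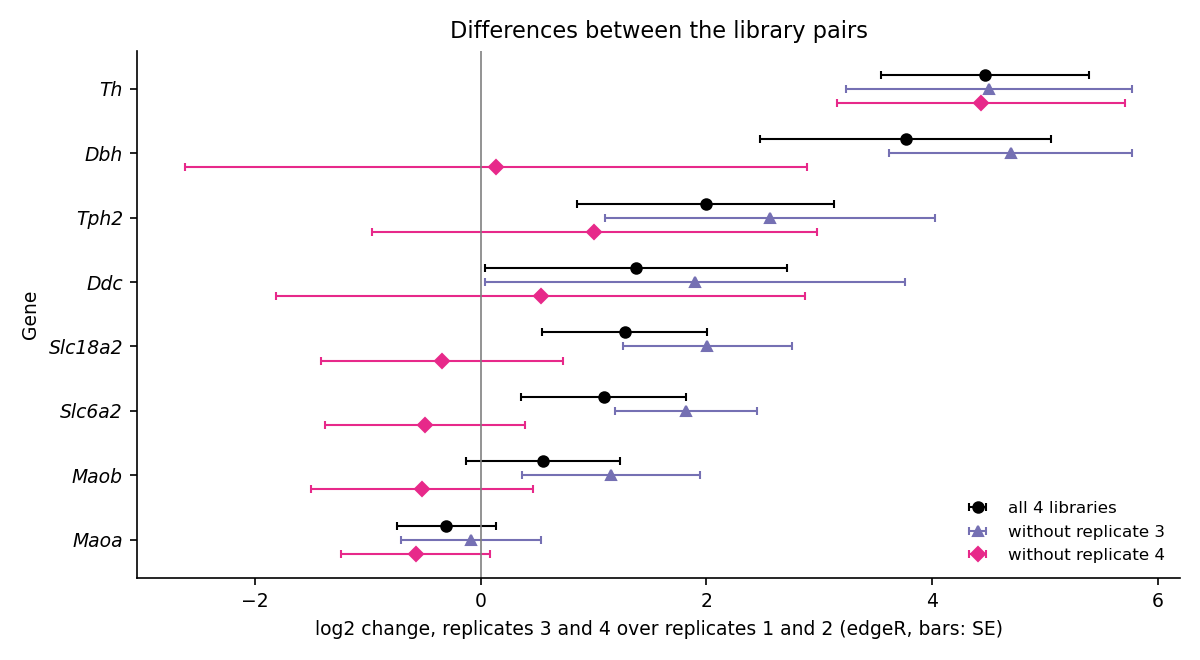
Log2 change of 8 members in replicates 3 and 4 over replicates 1 and 2 (edgeR, bars are SE), with all 4 libraries and without replicate 3 or 4. Th has a change of 4.43 to 4.51 in the settings shown (3.80 without replicate 2 and 5.87 without replicate 1, not drawn), and Dbh drops to 0.14 without replicate 4.

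Other gene sets differed between the same libraries. Of 8 cerebellar granule cell genes 3 were called lower in the second pair, Cbln3, Neurod1 and Cbln1, with a median log2 change of -1.87 over the list, beside 0.554% of all genes tested that were called lower. The sum of the list was 640 and 712 CPM in the second pair, against 2024 and 2540 CPM in the first. The general neuronal list summed to 12415 and 13301 CPM in the second pair, against 26153 and 23436 CPM in the first, with Nefm called lower. Most of this sum was Snap25, a synaptic fusion gene, and without it the list summed to 4284 and 6365 CPM, against 7577 and 7527 CPM. The list's median log2 change was -0.19, and Uchl1 (1.49), Eno2 (0.89) and Map2 (0.28) had values above 0. The ependymal and choroid plexus list summed to 3.69, 6.88, 15.6 and 131 CPM in replicates 1 to 4, most of it Ttr at 106 CPM in replicate 4. Of its 6 genes with any count 4 were highest in replicate 4, while Clic6 was highest in replicate 3 at 8.17 CPM. None of the 7 genes of the list reached 1 CPM in every library and Rarres2 was at 0 counts. Oligodendrocyte genes summed to 1632, 1791, 433 and 2476 CPM, with 7 of 8 at 1 CPM or more throughout. Of 7 Purkinje cell genes 2 were called lower, Car8 and Itpr1, and the list summed to 769 and 748 CPM in the second pair, against 1579 and 2619 CPM in the first. Without Itpr1 it summed to 413 and 318 CPM, against 630 and 913 CPM, and Pcp2 (log2 change 1.85) and Calb1 (0.57) had values above 0. Endothelial genes summed to 156, 237, 101 and 41.6 CPM in replicates 1 to 4, mural and leptomeningeal genes to 96.7, 83.8, 136 and 126 CPM and microglia genes to 31.6, 9.19, 10.4 and 54.5 CPM. Transmitter genes of other neurons summed to 915, 913, 464 and 1148 CPM, and none of these last 4 lists held a called gene. The part of these cells' RNA in the members' levels was not tested.

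Markers of the neurons that use these amines were read beside the members. Of 10 other noradrenaline neuron markers, 3 reached 1 CPM in all 4 libraries. Among them were the transcription factor gene Tfap2b (525, 457, 454 and 165 CPM) and the vesicle cytochrome gene Cyb561 (39.0, 13.8, 36.2 and 22.8 CPM), both highest in replicate 1. Phox2a, a transcription factor gene required for the locus coeruleus, was at 0, 0, 0.55 and 1.83 CPM and so highest in replicate 4, as was the peptide gene Gal at 0.142, 0, 0 and 3.26 CPM. The orexin receptor gene Hcrtr1, at 0.804, 0, 7.54 and 5.68 CPM, had its 2 highest levels in replicates 3 and 4, but was not called (edgeR adjusted p = 0.319). Hand2, a noradrenergic factor gene outside the brain, was at 0 counts. The sum of these 10 genes, of which Tfap2b is the largest part, was 573, 477, 514 and 215 CPM. Without Tfap2b it was 48.2, 19.5, 60.6 and 49.7 CPM, with Cyb561 as the largest part in each library. Of the 10 genes 5 were highest in replicate 4. Of the 5 tested none was called, and their median log2 change was 1.04.

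Among 11 other serotonin neuron markers, 2 reached 1 CPM in all 4 libraries, the serotonin receptor genes Htr1a (29.1, 56.4, 37.6 and 27.0 CPM) and Htr1b (9.27, 5.91, 6.21 and 11.6 CPM). Both receptors are also made by cells that receive serotonin. Fev, the transcription factor gene known to be restricted to serotonin neurons in the brain, was at 1.37, 0.129, 0.864 and 3.40 CPM. Gata3 was at 0.189, 0, 1.49 and 10.3 CPM, like Tph2 highest in replicate 4. Lmx1b, needed for serotonin neurons but not limited to them, was at 1.23, 0, 54.5 and 18.7 CPM (log2 change 5.92, edgeR adjusted p = 0.057). Trh was at 0 counts in all 4 libraries. Of the 7 tested none was called, and their median log2 change was 0.77.

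The dopamine neuron list was partly missing. Slc6a3, the dopamine transporter gene, and the factor genes Pitx3, Foxa1 and Foxa2 were at 0 counts in all 4 libraries. The floor of 3 counts stood at 0.142 to 0.236 CPM per library. Of the 10 genes 5 reached 1 CPM in every library, among them En1, Lmx1a (47.0, 51.6, 55.8 and 15.4 CPM), Drd2 (41.7, 29.2, 16.7 and 12.4 CPM) and Aldh1a1 (27.8, 35.7, 4.08 and 35.0 CPM), all known in other cells too. Replicate 3, with Th high and Dbh low, had no read of Slc6a3 or Pitx3, like every other library. Its Lmx1a level was the highest, but close to those of replicates 1 and 2. En1, Aldh1a1 and Nr4a2 (14.9, 19.0, 6.20 and 33.8 CPM in replicates 1 to 4) were lowest in replicate 3. The cell source of the Th RNA in replicate 3 was not tested. Among 5 cholinergic markers, Chat, the acetylcholine-making enzyme gene, stood at 22.3 and 25.7 CPM in the second pair, against 1.56 and 0.836 CPM in the first (log2 change 4.33, edgeR adjusted p = 0.061). Its libraries were high and low as those of Th. Slc18a3, the vesicular acetylcholine transporter gene, was at 2.75 and 3.85 CPM in the second pair, against 0.615 and 0.643 CPM in the first (log2 change 2.38, edgeR adjusted p = 0.572). The choline transporter gene Slc5a7 did not share this, at 63.0, 168, 48.5 and 64.4 CPM in replicates 1 to 4. None of the 4 cholinergic genes tested was called.

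**Figure D4:**
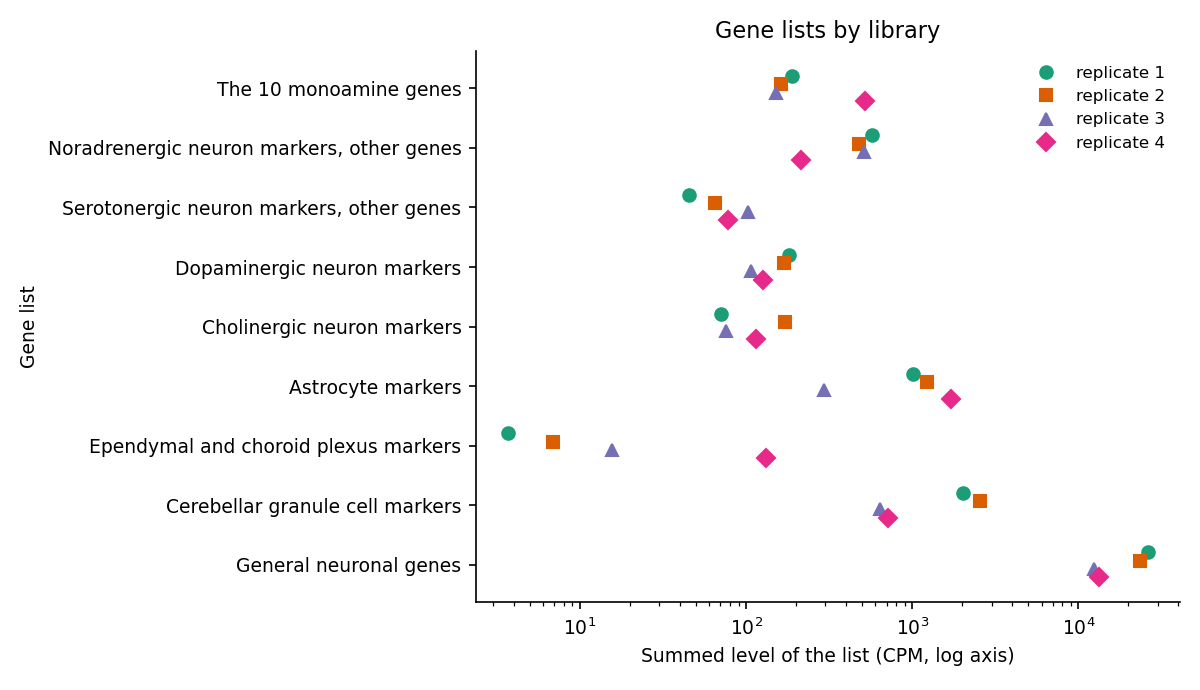
Summed CPM (log axis) of 9 gene lists in replicates 1 to 4, with the members taken out of the noradrenergic and serotonergic lists. The 10 monoamine genes sum to 518 CPM in replicate 4 and to 152 to 188 CPM in the others, whereas the sum of the other noradrenergic markers, most of it Tfap2b, is lowest in replicate 4 at 215 CPM.

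No gene of the rest of the pathway was called between the library pairs. Of 7 genes that make or recycle tetrahydrobiopterin 6 reached 1 CPM in all 4 libraries, and none of the 6 tested was called (median log2 change -0.01). Pcbd1 was at 78.3, 51.9, 65.7 and 73.5 CPM and Qdpr, which regenerates the cofactor, at 42.1, 35.7, 34.2 and 59.9 CPM. Pts, which follows Gch1 in cofactor synthesis, was at 52.2, 19.3, 25.1 and 11.4 CPM, so the second enzyme was well detected where the first was near the floor. Of 14 other amine enzymes 7 reached 1 CPM throughout and none of 9 tested was called, with a median log2 change of 1.75. Pnmt, which makes adrenaline, was at 0 counts in all 4 libraries, as was Asmt of melatonin synthesis. Of 13 other carriers and vesicle genes 8 reached 1 CPM throughout and none of 8 tested was called (median 0.43). Slc22a2, an organic cation transporter gene, was at 0 counts, as was Slc6a3.

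Genes with a profile most like that of a member were ranked by the root-mean-square distance between centred log2 levels over the 4 libraries, among genes of 5 CPM or more on average. Among the nearest to Tph2 were Arpc1b (distance 0.10), Slc29a4 (0.17), 1810043H04Rik (0.19) and Sik1 (0.19). Slc29a4, the plasma membrane monoamine transporter gene, was at 2.65, 8.10, 10.7 and 27.2 CPM and was on the carrier list. Nearest to Dbh were Sdc4 (0.23), Bmp6 (0.29), Cdc42bpg (0.36), AK140437 (0.37) and Mrpl24 (0.44), each of them highest in replicate 4. Nearest to Th were Ino80e (0.16), Rps14 (0.23), Ttyh1 (0.26), Hspbp1 (0.30) and Hist1h4d (0.36), of which Rps14 and Hist1h4d have near-identical copies and uncertain counts. Nearest to Slc6a2 were Cacna1i (0.10), Cept1 (0.13), Trpm2 (0.18), Ppargc1b (0.22) and Tia1 (0.24). Of 10691 genes compared, only 6 lay within 0.5 of Dbh and 13 of Th, against 109 for Slc6a2 and 203 for Tph2, and with 4 libraries such likeness is a description only. Among the members themselves, the closest were Slc6a2 and Slc18a2 (0.38) and Ddc and Tph2 (0.40).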

How the data were processed

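The authors deposited 1 table of raw counts for each library, listed by gene symbol and not normalized. Per the submitters' processing notes, STAR 2.0.0e and HTSeq were used on mm10. The annotation, strand setting and counting options are not given in the sources used here. Rows that name no gene were left out of totals and tests: reads outside features were 24.0% to 30.1% of a library, reads aligned more than once 28.6% to 37.2% and ambiguous reads 1.25% to 2.07%. The tables listed 32531 (replicates 1 and 2) or 32657 (replicates 3 and 4) gene rows. The 31735 shared rows were analysed, and the others held 0.549% to 0.732% of the counts.

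CPM were computed over all gene rows. Exon lengths and coordinates came from GENCODE M21 (GRCm38, the assembly of mm10) and promoters from RefSeq (GRCm38.p6). One count was worth 0.0473 to 0.0785 CPM. Floors of 3 counts and intervals cover counting error only, as no molecular identifiers are stated. Library pairs were compared by the quasi-likelihood test of edgeR 4.0.16, after filterByExpr and TMM scaling, at a Benjamini-Hochberg adjusted p of 0.05, with DESeq2 1.42.0 as an alternative. The edgeR step and the sign-flip test were checked on simulated data. The label of replicate 4 repeats the replicate number of replicate 3 in its description, and the title was followed. The 10 genes, the 17 gene lists and the 16 ratios were chosen with earlier results of these data known. The rule for named genes took all 10 members, up to 4 of the most abundant genes of each other list with those called or at 0 counts, and the 5 genes most like Th, Dbh, Slc6a2 and Tph2. The genes outside it, Phox2a, Gal, Hcrtr1, Fev, Nr4a2, Slc22a3, Hdc, Tph1, Aanat, Uchl1, Eno2, Map2 and Pcp2, were named after their values were seen. Some genes that the rule names are not reported here.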

Additional observations from a re-analysis of the deposited data

Results flagged for a closer look

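Of 45 sets of 4 library values tested for a far value (by Dixon's test), 5 stood out. Chance flags about 1 in 20 such sets if values are normally distributed, and the sets share libraries and genes. Levels and list sums were tested as CPM, not on the log2 scale, where skewed values can raise that rate. Replicate 4 stood far above the others for Dbh, at 61.1 CPM against 1.03 to 3.36 CPM, for Slc18a2, at 92.6 CPM against 15.6 to 26.7 CPM, and for Slc6a4, at 5.42 CPM against 0 to 0.0473 CPM. Replicate 3 stood apart in the log2 ratio of Th to Dbh, at 3.52 against -0.33 to -0.04. The sum of the ependymal and choroid plexus markers was 131 CPM in replicate 4, of which Ttr made up 106 CPM, against 3.69 to 15.6 CPM in the others. Th itself did not stand out in this test, with 2 libraries high and 2 low.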

How the results depend on the processing

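Th kept its direction and its call in every alternative. The number of genes called between library pairs (176, of which 99 higher and 77 lower in the second pair) was 1377 by DESeq2 (725 and 652), 875 with every gene of at least 1 count (422 and 453), 438 with genes of 10 CPM or more on average (266 and 172), and 389 to 699 (171 to 369 higher, 218 to 367 lower) when 1 replicate was left out, where the lone library of a pair is assumed to vary like the other pair. The cause was not tested. Dbh, not called in the test reported, was called by DESeq2 (log2 change 3.76) and without a filter on low counts (3.75). With 1 replicate left out, log2 changes ranged from 0.14 to 4.82 for Dbh, -0.50 to 2.21 for Slc6a2, which was called without replicate 1 (edgeR adjusted p = 0.0355), -0.34 to 2.01 for Slc18a2, -0.52 to 1.16 for Maob and -6.45 to 0.49 for Gch1. Gch1 was at 0 in replicate 3, and its lowest value has no reads on one side and depends on the prior count. The log2 ratio of Th to Dbh ranged from -0.19 to 1.10 and that of Dbh to Tph2 from -0.62 to 0.33, the second being 0.0033 with a pseudocount of 1 CPM per kb. Members with an SD over 1 ranged from 1 to 8 and their median SD from 0.62 to 1.40, and 4 members reached 5 CPM in every library. Gch1, Slc6a4 and, in replicates 1 to 3, Dbh are limited by depth. The members' median log2 change ranged from -0.34 (without replicate 4) to 1.89. List sums without their most abundant gene were added after seeing the data. No paired analysis was possible because the titles, from which replicate numbers were taken, number the 4 libraries of 1 group from 1 to 4. The names of the deposited tables number each library pair 1 and 2, and were not used to pair libraries.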

Other observations

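Hdc, Tph1, Aanat and Slc22a3 were low and uneven, at 5.66 CPM or less in every library. Hdc, which makes histamine, was at 0, 0.964, 5.66 and 0.131 CPM in replicates 1 to 4, with 72 of its 89 counts in replicate 3. Tph1, the tryptophan hydroxylase known from the gut and the pineal gland, was at 0, 0, 0.943 and 3.85 CPM, and Aanat, an enzyme of melatonin synthesis, had 2 counts in all. Slc22a3, an organic cation transporter gene, was at 0 counts in replicates 1 to 3 and at 3.26 CPM in replicate 4.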
